A study of Macaca fascicularis with 32 samples.

Results

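The collagen genes are the genes for the alpha chains that fold in groups into collagen proteins. They were taken as every gene whose symbol is COL, a number, A and a number, which gave 41 of the 22316 genes in the deposited annotation. Each was followed through the cell classes of 3 brain regions of cynomolgus macaques: the substantia nigra (SN), the caudate nucleus (CN, "Caudal nucleus" in the labels) and the putamen (PUT). SN holds the dopaminergic neurons that are lost in Parkinson's disease, and PUT and CN are the striatal regions they project to. All 41 genes had at least 1 UMI (unique molecular identifier, the count of 1 captured RNA molecule) in a named class, but 9 had no class with 50 UMIs, and 26 reached 50 UMIs in a class of a single library.

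Nuclei were isolated from brain tissue and run on a droplet platform that reads the 3′ ends of RNA. The animals labelled PD belong to a monkey model of Parkinson's disease that combines an adeno-associated virus (AAV) vector with poly(ADP-ribose), and those labelled CT were taken as its controls. Age, sex, dose, time after treatment and what the controls received are not given in the labels, so the model cannot be described further here. By the labels PUT CT and CN CT comprise 8 samples each and the remaining groups 4 each, yet the counts come as 6 matrices, 1 for every group, and nothing assigns a barcode to its sample. A matrix was therefore treated as 1 library, so no difference below has a replicate check, no p-value is given, and treatment, animals and library cannot be told apart. All ranges in brackets after a level or ratio are 95% counting intervals unless said otherwise, and they hold no animal-to-animal error.

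The libraries held 7702 to 10389 barcodes and 18692617 to 36723856 UMIs, and 52728 nuclei were retained with median depths of 1170 to 3022 UMIs. SLC6A3, the dopamine transporter, reached 191 and 167 UMIs per 1000000 (CPM) in the SN CT and SN PD libraries and at most 0.180 in PUT and CN, and PPP1R1B, a marker of striatal spiny projection neurons (SPNs), reached 165 to 232 in PUT and CN and at most 10.9 in SN. Pairs of libraries shared 14 to 38 barcodes. Nuclei were grouped with all collagen genes left out of the clustering and of the markers. The classes are named "-like" because they rest on markers alone. Of 82 named clusters, 61 drew most of their nuclei from 1 library. Clusters that carried the markers of more than 1 family held 7.14% of retained nuclei and were left out.

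Collagens are sorted by the structures they build. Fibrillar collagens (types I, II, III, V, XI, XXIV and XXVII) form or nucleate fibrils. Type IV forms the network of basement membranes, which in brain lie chiefly around blood vessels. Collagens of the FACIT group (such as types IX, XII, XIV, XVI, XIX, XX and XXI) attach to fibrils or membranes, types XXIII and XXV are transmembrane collagens whose outer part can be shed, and type XVIII is a basement membrane collagen that carries heparan sulfate chains. Brain tissue away from vessels and meninges holds little fibrillar collagen, and several of the less common collagens are made by neurons and glia.

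Collagen genes were expressed in vascular, glial and neuronal nuclei, and which group led depended on how many counts were asked for. A level is the CPM of a class, averaged over the libraries with at least 50 nuclei of that class. Endothelial-like (79 nuclei), mural-like (61) and fibroblast-like (54) nuclei were below 50 in every library, so their levels are sums over the 6 libraries and are not compared between PD and CT. When a class had to hold at least 50 UMIs of a gene, 32 genes could be placed, 19 with their highest level in a glial class, 10 in a neuronal class and 3 in a vascular class. With any number of UMIs, a count chosen after seeing the data, 25 of the 41 genes were highest in a vascular class, among them 16 placed elsewhere under the stricter rule. Of these 25 genes, 7 rested on 1 or 2 vascular UMIs, and 14 had a vascular interval wholly above their level in each class that is not vascular. The leading classes named below are those among classes with at least 50 UMIs. Under that rule oligodendrocyte-like and oligodendrocyte precursor (OPC)-like nuclei held the highest level of 8 genes each, indirect SPN-like nuclei of 4, astrocyte-like and other neuron-like nuclei of 3 each, dopaminergic neuron-like and fibroblast-like nuclei of 2 each, and direct SPN-like and mural-like nuclei of 1 each. Some placings did not hold in most libraries with both the first and the second class. The first class was higher in 2 of 6 libraries for COL2A1 and COL14A1 and in 2 of 4 for COL6A6 and COL8A1. It was higher in 1 of 2 for COL18A1 and 0 of 2 for COL21A1.

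**Figure D1:**
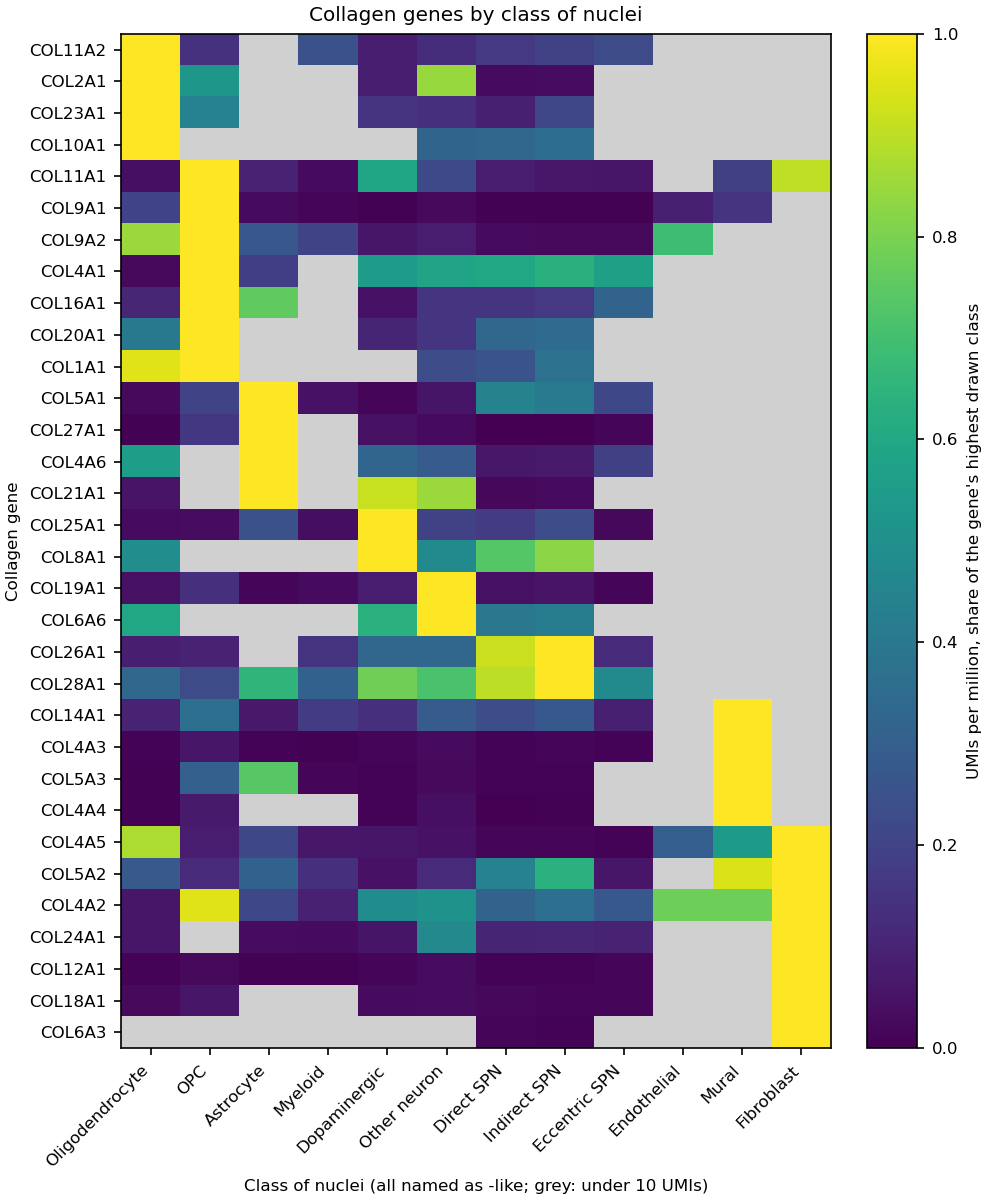
Level of each collagen gene with a placed class (rows) in each class of nuclei (columns), as a share of the gene's highest drawn class, where 1 is that class and grey marks fewer than 10 UMIs. Vascular columns rest on 54 to 79 nuclei. COL9A1 and COL11A1 peak in OPC-like nuclei, COL25A1 in dopaminergic neuron-like nuclei, COL27A1 in astrocyte-like nuclei and COL12A1 in fibroblast-like nuclei. Genes such as COL5A3, COL14A1, COL4A4 and COL18A1 peak in a vascular column on fewer than 50 UMIs.

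Fibroblast-like nuclei carried the classical interstitial collagens, although in few counts. COL1A2 and COL3A1, chains of the main fibrillar collagens of connective tissue, had 19 UMIs each in these 54 nuclei, which is 275 CPM (165 to 429), and 12.2 and 48.8 CPM in mural-like nuclei. In neuronal and glial classes COL1A2 was at most 1.34 CPM and COL3A1 at most 0.552 CPM. COL6A2 reached 289 CPM (177 to 447) and COL6A3 202 CPM (111 to 340). Both encode chains of the beaded filament collagen VI. COL12A1, a FACIT collagen that binds collagen I fibrils, was 911 CPM (700 to 1165, 63 UMIs) in fibroblast-like nuclei against 29.7 CPM in other neuron-like nuclei, the next class with at least 50 UMIs. COL1A1 was 116 CPM (49.9 to 228) there from 8 UMIs, fewer than the 50 required for placing a gene.

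The type IV genes divided between vessels and glia. COL4A3 and COL4A4, which pair with COL4A5 in a basement membrane network, reached 732 CPM (558 to 942, 60 UMIs) and 341 CPM (227 to 493, 28 UMIs) in mural-like nuclei. Elsewhere COL4A3 was at most 44.7 CPM, in OPC-like nuclei. COL4A5 was instead an oligodendrocyte gene by count: 747 CPM over 6 libraries, with 675 (CN CT) to 840 (SN PD) in single libraries. Its fibroblast-like level was 853 CPM (649 to 1100, 59 UMIs), an interval that includes the oligodendrocyte level. COL4A1 and COL4A2, the chains of the most common basement membrane network, were highest among the placed classes in OPC-like nuclei, at 45.6 and 179 CPM, and were as high or higher in vascular classes on few counts. COL4A1 was 97.5 CPM in mural-like nuclei (8 UMIs) and 54.9 CPM (20.1 to 119) in endothelial-like nuclei, and COL4A2 was 188 CPM in fibroblast-like nuclei (13 UMIs) and 146 CPM (83.6 to 238) in endothelial-like nuclei. COL4A2 was also 51.5 to 96.0 CPM in the neuronal classes, and was higher in OPC-like than in other neuron-like nuclei in 6 of 6 libraries.

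The measured collagen IX and XI genes had their leading class in the oligodendrocyte lineage. COL9A1, a chain of FACIT collagen IX, was 1042 CPM in OPC-like nuclei (966 to 1120 over the libraries). In oligodendrocyte-like nuclei it was 208 CPM (120 to 338 over the libraries). Its order was the same in 6 of 6 libraries. COL9A2, its partner chain, was close in both, at 212 and 180 CPM, with OPC-like nuclei higher in 4 of 6 libraries. COL11A1, a fibril-nucleating chain, was 640 CPM in OPC-like nuclei and 377 CPM in dopaminergic neuron-like nuclei, but 26.7 CPM in oligodendrocyte-like nuclei. Its fibroblast-like level was 578 CPM (413 to 787, 40 UMIs), an interval that includes the OPC level and lies above the dopaminergic one. COL11A2, another chain of collagen XI, was highest in oligodendrocyte-like nuclei, at 67.3 CPM against 13.02 in indirect SPN-like nuclei.

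Astrocyte-like nuclei were the leading class of COL27A1 (235 CPM against 38.3 in OPC-like nuclei), a fibrillar collagen known from cartilage, and of the collagen V chains COL5A3 (244 CPM against 100) and COL5A1 (108 CPM against 48.3 in direct SPN-like nuclei). Neurons led for COL25A1, a transmembrane collagen first found in amyloid plaques, at 825 CPM in dopaminergic neuron-like nuclei. The FACIT gene COL19A1, which interneurons make in mice, was 289 CPM in other neuron-like nuclei against 39.6 in OPC-like nuclei. It was higher in other neuron-like nuclei in 4 of 6 libraries, those of PUT and CN, and lower in SN (38.1 and 38.9 CPM against 47.7 and 67.0). COL24A1, a fibrillar collagen, was 68.0 CPM in the same class. COL5A2 and COL26A1 led in indirect SPN-like nuclei, at 157 and 62.9 CPM, with direct SPN-like nuclei at 109 and 57.8 and the higher class the same in 4 of 4 libraries. For COL26A1 the intervals of the SPN classes overlapped in PUT PD, CN CT and CN PD, and in PUT CT they lay side by side (55.9 to 66.7 CPM in direct and 67.1 to 77.8 CPM in indirect SPN-like nuclei). In the vascular classes COL5A3 reached 329 CPM in mural-like nuclei (217 to 479, 27 UMIs) and COL5A2 246 CPM in fibroblast-like nuclei (143 to 393, 17 UMIs), intervals that include the level of the leading class. COL24A1 was 145 CPM in fibroblast-like nuclei (69.3 to 266, 10 UMIs).

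Several genes had no clear leader among the classes with at least 50 UMIs. COL2A1 (13.4 CPM in oligodendrocyte-like and 11.3 in other neuron-like nuclei), COL18A1 (6.58 in other neuron-like and 5.87 in dopaminergic neuron-like nuclei), COL20A1 (5.28 and 4.59 in oligodendrocyte-like and indirect SPN-like nuclei), COL21A1 (18.2 and 16.9 in dopaminergic and other neuron-like nuclei) and COL28A1 (18.5 and 16.6 in indirect and direct SPN-like nuclei) differed by ratios of 1.08 to 1.18 between the leading classes. On fewer UMIs these genes stood higher in other classes. COL18A1 was far higher in fibroblast-like nuclei, 202 CPM from 14 UMIs. COL21A1 was 101 CPM there (40.7 to 208, 7 UMIs), and COL2A1 and COL28A1 were 28.9 CPM from 2 UMIs each. COL20A1 was 13.1 CPM in OPC-like nuclei from 31 UMIs. The near tie of COL21A1 came from averaging other neuron-like nuclei over 3 regions. In SN, where both classes were present, dopaminergic neuron-like nuclei had less of it in each library. They held 16.9 CPM in CT and 19.5 in PD, against 55.8 and 24.9 in other neuron-like nuclei. COL6A1, COL6A5, COL7A1, COL8A2 and COL17A1 had 3 to 19 UMIs over all classes, and COL22A1, COL6A2, COL1A2 and COL3A1 had 43 to 90. Myeloid-like nuclei are given below beside low levels, for comparison only. At median depths of 765 to 989.5 UMIs they held 54.7 CPM of COL4A5, 43.6 of COL9A2 and 31.0 of COL25A1. Free RNA was neither measured nor corrected for, and its part in these levels was not tested.

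Levels within a class also differed between regions. COL2A1, the main cartilage collagen, was 62.0 CPM (57.0 to 67.3) in oligodendrocyte-like nuclei of SN CT, 1.72 CPM (0.741 to 3.38) in PUT CT and 0.594 CPM (0.015 to 3.31) in CN CT. COL19A1 in other neuron-like nuclei was 38.1 CPM in SN CT, 360 in PUT CT and 527 in CN CT, and 38.9, 318 and 452 in the PD libraries. COL25A1 ran the other way between the striatal regions: indirect SPN-like nuclei had 320.5 CPM in PUT CT and 73.9 in CN CT, with 300.3 and 80.0 in PD, and direct SPN-like nuclei had 257 and 43.1, with 245 and 42.1 in PD. COL14A1, a FACIT collagen, was 198 CPM in OPC-like nuclei of SN CT and 28.0 and 39.4 in those of PUT CT and CN CT. COL5A3 in astrocyte-like nuclei was 80.7 CPM in SN CT, 381 in PUT CT and 173 in CN CT. The PD libraries showed the same region highest for each of these genes. COL2A1 was 13.2 CPM (10.7 to 16.2) in SN PD, 1.38 in PUT PD and 1.24 in CN PD. COL14A1 was 134, 16.3 and 13.2 CPM, and COL5A3 65.7, 579 and 186 CPM, in SN, PUT and CN of PD. Regions are single libraries, and other neuron-like nuclei of SN and striatum are different neurons.

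The comparison of PD with CT asked which collagen genes differed in a class. A gene was compared where both libraries held at least 50 nuclei of the class and at least 50 UMIs of the gene between them, and it was called where the ratio of CPM passed 2-fold either way with 0.5 UMI added. This gave 22 class and region comparisons and 236 gene ratios for 30 collagen genes. Of these ratios 47 (19.92%) passed 2-fold, 27 higher and 20 lower in PD, against 4.39% of 150288 ratios over all genes, and 21 genes did so at least once. With at least 200 UMIs the collagen count was 14 of 99 (14.14%) against 2.26% over all genes. The median log2 ratio of the collagen genes was -0.01 against -0.05 over all genes, and calls lay on both sides. The counting interval excluded no difference for each of the 47. The collagen genes were chosen with earlier results of these data known, so their share of calls is not an independent result.

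**Figure D2:**
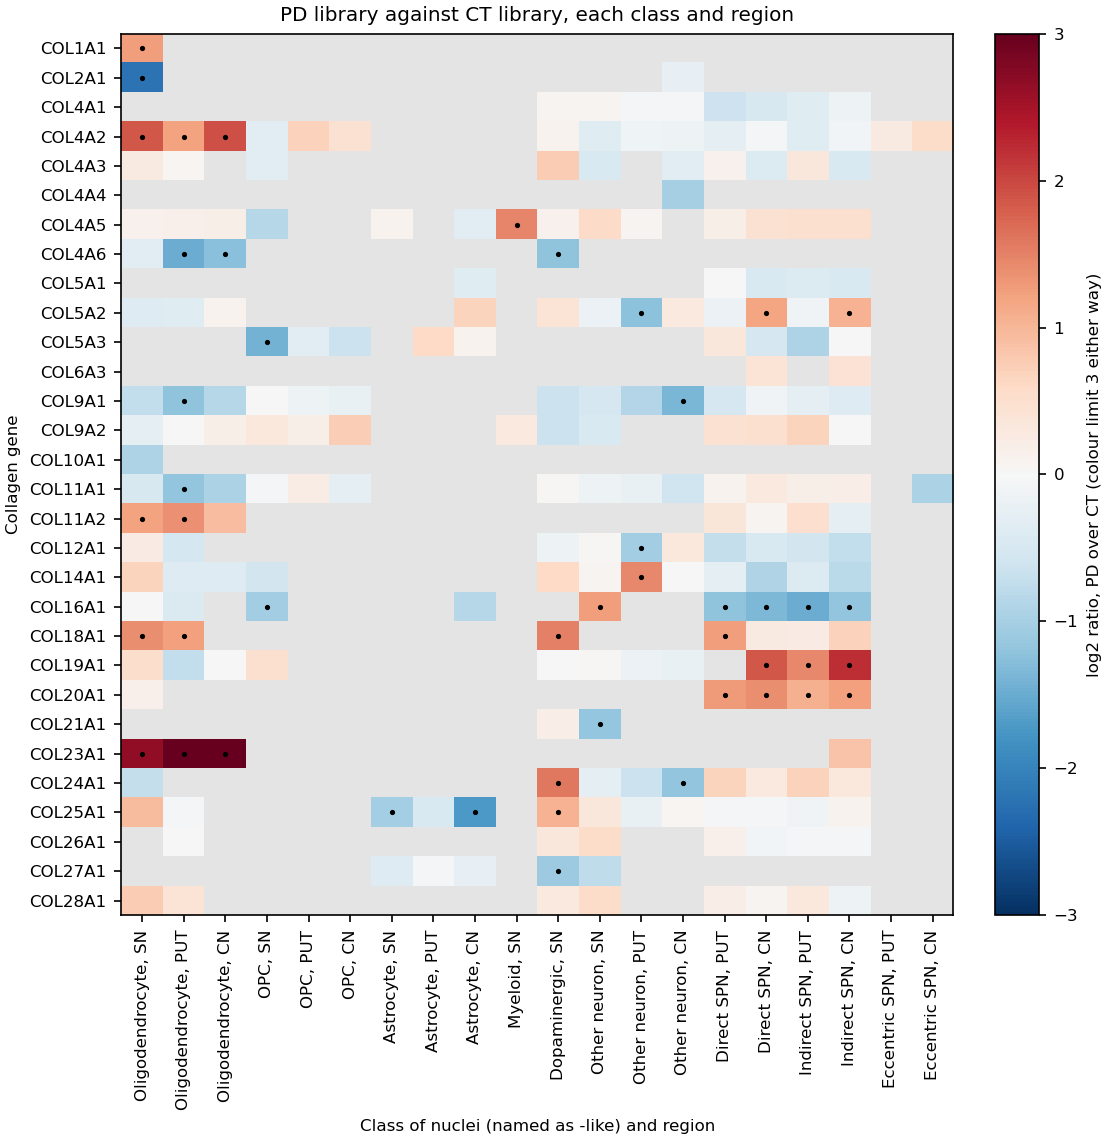
Log2 ratio of PD to CT (colour, red higher in PD, limited at 3 either way) for the 30 collagen genes that could be compared (rows) in each class and region with a value (columns), with dots where the ratio passed 2-fold and grey where a gene had fewer than 50 UMIs. COL23A1 and COL4A2 are red in the oligodendrocyte columns of 3 regions, and COL16A1 is blue and COL20A1 red in the 4 SPN columns.

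In oligodendrocyte-like nuclei 6 of 22 collagen genes were called in SN, where 5.87% of all genes were, 7 of 18 in PUT (5.76%) and 3 of 11 in CN (4.48%). The CT and PD libraries filled different clusters of these nuclei in PUT and CN. In PUT, clusters 7.1 and 7.0 held 46.9% and 41.8% of the CT nuclei, and clusters 8.0 and 8.1 held 62.7% and 21.7% of the PD nuclei. In CN, clusters 7.0 and 7.1 held 61.0% and 27.4% of the CT nuclei, and clusters 8.1 and 8.0 held 67.5% and 24.3% of the PD nuclei. COL23A1, a transmembrane collagen, was higher in PD in all 3 regions. It had 50 UMIs in SN CT and 253 in SN PD, or 5.5 and 35.2 CPM, a ratio of 6.42 (4.73 to 8.88). PUT had 9 and 82 UMIs (1.9 and 22.7 CPM), a ratio of 11.7 (5.88 to 26.6), and CN had 3 and 80 (1.8 and 19.9 CPM), a ratio of 11.1 (3.68 to 55.2). The lowest PD library therefore lay above the highest CT library, and the share of all genes that separate in this way is not given. Myeloid-like nuclei held 0 to 2 UMIs of COL23A1 in each library, at most 3.5 CPM, and other neuron-like nuclei at most 3.4 CPM. Within clusters that held nuclei of both libraries the log2 ratio of COL23A1 was 2.17 in SN, 4.31 in PUT and 3.21 in CN. Values within clusters have no counting interval, here or below. Those of COL23A1 rest on at most 9 CT UMIs in PUT and 3 in CN. The shared clusters were also unequal: in PUT, cluster 7.1 held 1890 CT and 80 PD nuclei, and cluster 8.0 held 67 and 1706.

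COL4A2 was also higher in oligodendrocyte-like nuclei of PD in each region, but at low levels. Its CPM was 5.2 and 18.8 in SN (47 and 135 UMIs, ratio 3.65, 2.598 to 5.196), 4.9 and 11.6 in PUT (23 and 42 UMIs, ratio 2.35, 1.38 to 4.09) and 5.3 and 21.4 in CN (9 and 86 UMIs, ratio 3.99, 2.01 to 9.03). Myeloid-like nuclei of the same libraries had 11.6 and 15.5 CPM in SN, 19.2 and 20.4 in PUT and 5.9 and 31.0 in CN, and each oligodendrocyte value lay within or below the interval of that myeloid value, which rests on 1 to 12 UMIs. Within clusters the log2 ratio of COL4A2 was 1.73 in SN, 2.07 in PUT and 2.01 in CN. COL4A1, its partner chain, had too few UMIs in oligodendrocyte-like nuclei to be compared.

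The collagen XI chains differed in opposite directions in these nuclei. COL11A2 was 46.4 CPM in SN CT and 106.6 in SN PD (ratio 2.296, 2.04 to 2.59), 47.0 and 122 in PUT (2.60, 2.21 to 3.07) and 27.9 and 53.4 in CN (1.91, 1.39 to 2.68), under 2-fold in CN. Myeloid-like nuclei held 5.9 to 37.9 CPM of it. COL11A1 was 47.4 and 33.7 CPM in SN (0.711, 0.605 to 0.834), 24.0 and 10.5 in PUT (0.437, 0.294 to 0.636) and 29.1 and 15.1 in CN (0.520, 0.351 to 0.774), past 2-fold in PUT. Myeloid-like nuclei had 5.9 to 36.3 CPM of COL11A1, a range that covers most of these values.

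The chains of collagen IX also differed from each other. COL9A1 was lower in PD in oligodendrocyte-like nuclei of SN (199 and 120 CPM, ratio 0.601, 0.553 to 0.652), PUT (338 and 147, ratio 0.433, 0.392 to 0.478) and CN (286 and 158, ratio 0.554, 0.492 to 0.625), and past 2-fold in PUT, where its log2 ratio was -1.21 and -0.99 within clusters. COL9A2 was close in the same nuclei, with ratios of 0.823 (0.769 to 0.880) in SN, 1.003 (0.909 to 1.11) in PUT and 1.14 (0.962 to 1.35) in CN. In OPC-like nuclei, its leading class, COL9A1 had ratios of 1.01 (0.893 to 1.14), 0.903 (0.763 to 1.07) and 0.863 (0.755 to 0.985). COL9A1 lay lower in PD in 13 of its 14 comparisons, and COL9A2 higher in 10 of 13.

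COL4A6, a type IV chain, was lower in PD in oligodendrocyte-like nuclei of PUT (66 and 18 UMIs, 14.2 and 5.0 CPM, ratio 0.351, 0.196 to 0.598) and CN (38 and 38 UMIs, 22.6 and 9.4 CPM, 0.418, 0.259 to 0.673), while in SN it was 9.9 and 7.9 CPM (0.804, 0.566 to 1.13). Within clusters its log2 ratio was -2.23 in PUT and -1.07 in CN, on at most 18 and 38 PD UMIs. COL4A5, another type IV chain, was 1.10 to 1.12 times as high in PD in the 3 regions. COL18A1 was higher in PD in SN (24 and 50 UMIs, ratio 2.64, 1.59 to 4.50) and PUT (19 and 35 UMIs, 2.37, 1.32 to 4.39), from 2.6 to 9.7 CPM. Within clusters its log2 ratio was 1.22 in SN and 0.25 in PUT. Myeloid-like nuclei had 0 to 8.7 CPM of COL18A1 on at most 3 UMIs a library, and in CN oligodendrocyte-like nuclei the gene had too few UMIs to be compared.

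COL2A1 was lower in PD in oligodendrocyte-like nuclei of SN, the region where it was abundant. It had 565 UMIs in CT and 95 in PD, or 62.0 and 13.2 CPM, a log2 ratio of -2.22 and a ratio of 0.213 (0.170 to 0.266). Within clusters the log2 ratio was -0.60. Clusters 0.0 and 3.1 held 25.1% and 23.1% of these nuclei in CT, and clusters 4.1 and 4.0 held 38.7% and 27.2% in PD, so that the libraries filled different clusters of the class. COL1A1 was 20 and 38 UMIs in the same nuclei, a ratio of 2.41 (1.37 to 4.37) at 2.2 and 5.3 CPM.

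**Figure D3:**
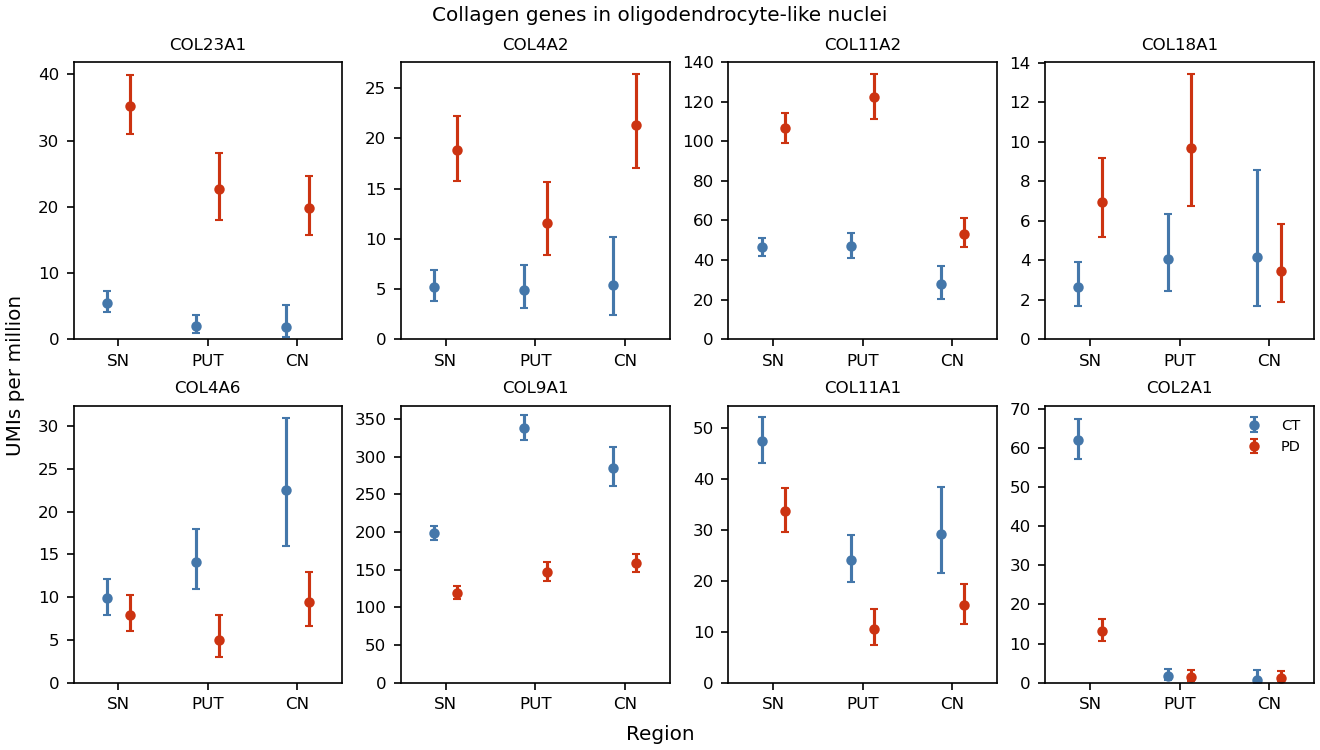
CPM of 8 collagen genes in oligodendrocyte-like nuclei of each region (x axis), with the CT library in blue and the PD library in red and bars for the 95% Poisson interval, which covers counting error only. The PD points of COL23A1, COL4A2 and COL11A2 lie above the CT points in each region, those of COL9A1 and COL11A1 lie below, and COL2A1 is near 0 outside SN.

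In SPN-like nuclei the called genes were few but much the same in both pathways. Direct SPN-like nuclei had 3 of 20 collagen genes called in PUT (4.21% of all genes) and 4 of 22 in CN (5.25%). Indirect SPN-like nuclei had 3 of 21 in PUT (4.16%) and 4 of 23 in CN (5.13%). Eccentric SPN-like nuclei had 0 of 1 called in PUT (3.47%) and 0 of 2 in CN (4.15%). The CN libraries share few clusters: of 2496 CT and 1920 PD direct SPN-like nuclei, 159 and 1886 lay in clusters with at least 20 nuclei of each library, and of 2237 and 1887 indirect ones 319 and 1825 did. Cluster 23.0 held 75.0% of the direct SPN-like nuclei of CT and cluster 23.1 72.0% of those of PD, and clusters 22.0 and 22.1 held 74.2% and 73.6% of the indirect ones. In CN direct SPN-like nuclei the median log2 ratio of all genes was -0.14, and in indirect ones -0.15, so values there lie by that much higher against the bulk of genes. In PUT, cluster 21.0 held 82.3% of the direct SPN-like nuclei of CT and cluster 21.1 87.2% of those of PD. The other gene called in direct SPN-like nuclei of PUT was COL18A1, with 18 and 32 UMIs (ratio 2.40, 1.31 to 4.54).

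COL16A1, a FACIT collagen, was lower in PD in each of the 4 SPN comparisons. It had 92 and 29 UMIs in direct SPN-like nuclei of PUT (11.1 and 4.7 CPM, ratio 0.425, 0.270 to 0.651) and 147 and 58 in CN (12.99 and 5.07 CPM, 0.390, 0.283 to 0.532). Indirect SPN-like nuclei had 115 and 31 UMIs in PUT (11.5 and 4.0 CPM, 0.352, 0.229 to 0.527) and 145 and 73 in CN (15.1 and 6.6 CPM, 0.440, 0.327 to 0.586). CT and PD values did not overlap over these classes, and here too the share of all genes that do so is not given. Within clusters the log2 ratios of COL16A1 were -0.44 and -2.20 in direct and -1.26 and -0.90 in indirect SPN-like nuclei of PUT and CN. Myeloid-like nuclei of PUT and CN had 0 to 5.95 CPM of COL16A1, at most 1 UMI a library, and both the CT and the PD levels lay within the interval of the myeloid level in the same library.

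COL20A1, another FACIT collagen, was higher in PD in the same 4 comparisons. It had 23 and 42 UMIs in direct SPN-like nuclei of PUT (2.8 and 6.8 CPM, ratio 2.46, 1.45 to 4.29) and 24 and 65 in CN (2.1 and 5.7 CPM, 2.68, 1.65 to 4.47). In indirect SPN-like nuclei it had 33 and 53 UMIs in PUT (3.3 and 6.9 CPM, 2.10, 1.33 to 3.34) and 23 and 63 in CN (2.4 and 5.7 CPM, 2.39, 1.46 to 4.04). Within clusters its log2 ratio was 0.11 in direct SPN-like nuclei of CN and 1.22 to 1.73 in the other comparisons. The CN values within clusters rest on 159 CT nuclei in direct and 319 in indirect SPN-like nuclei. Myeloid-like nuclei of each library held 0 UMIs of COL20A1. They held only 168122 (CN CT) to 386974 (CN PD) UMIs of all genes in PUT and CN. The counting interval of 0 UMIs therefore included the SPN levels of the same library.

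COL19A1 and COL5A2 differed mainly in CN. COL19A1 had 89 UMIs in CT and 475 in PD in indirect SPN-like nuclei of CN, or 9.3 and 43.2 CPM, a ratio of 4.66 (3.71 to 5.91), and 114 and 421 in direct ones, or 10.1 and 36.8 CPM, a ratio of 3.65 (2.96 to 4.53). In PUT it had 21 and 44 UMIs in indirect SPN-like nuclei (ratio 2.74, 1.59 to 4.84) and 21 and 20 in direct ones, too few to be compared. Myeloid-like nuclei of CN also held more COL19A1 in PD, 28.4 CPM (14.2 to 50.9, 11 UMIs) against 5.9 CPM (1 UMI), and other neuron-like nuclei of CN, its leading class, held 527 and 452 CPM. The part of free RNA in the SPN difference was not tested.

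COL5A2, a chain of fibril-regulating collagen V, was 55.9 and 128 CPM in direct SPN-like nuclei of CN (633 and 1460 UMIs, ratio 2.28, 2.08 to 2.51) and 101 and 208 CPM in indirect ones (973 and 2287 UMIs, 2.05, 1.90 to 2.21). In PUT the same nuclei had 135 and 119 CPM and 165 and 153 CPM. Within the clusters that hold both libraries the log2 ratio of COL5A2 in CN was -0.86 in direct and 0.20 in indirect SPN-like nuclei. Between nuclei of the same clusters the difference was reversed in direct and smaller in indirect SPN-like nuclei. Those clusters hold few CT nuclei, as given above. COL26A1, an SPN gene by level, had ratios near 1 in these classes, with log2 values from -0.08 to 0.15.

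**Figure D4:**
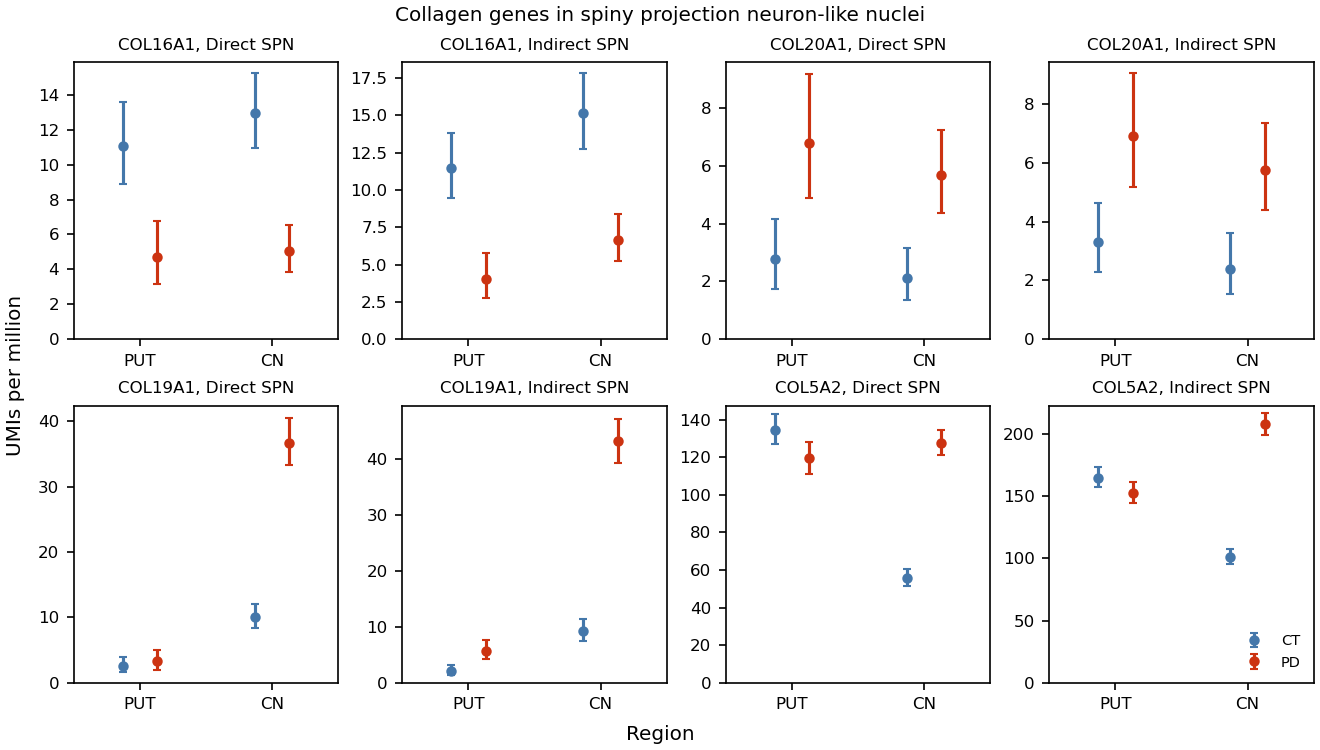
CPM of 4 collagen genes in direct and indirect SPN-like nuclei of PUT and CN (x axis), with the CT library in blue and the PD library in red and bars for the 95% Poisson interval of counting error. COL16A1 is lower and COL20A1 higher in PD in each panel, and COL5A2 is higher in PD in CN but not in PUT.

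Dopaminergic neuron-like nuclei of SN (354 in CT and 278 in PD, median depths 14308 and 14133 UMIs) had 5 of 19 collagen genes called, against 3.89% of all genes. COL25A1 had 2873 UMIs in CT and 4445 in PD, or 540 and 1110 CPM, a ratio of 2.06 (1.96 to 2.15). It was the class in which the gene was already highest. Its log2 ratio was 1.04, 0.95 with each nucleus weighted equally and 0.70 within clusters, so it was close to the threshold. The libraries filled different clusters here too: cluster 6.3 held 38.7% of the CT nuclei and cluster 6.2 34.5% of the PD nuclei. In other neuron-like nuclei of SN COL25A1 was 242 and 305 CPM (1.26, 1.13 to 1.40), and in oligodendrocyte-like nuclei of SN 20.9 and 40.5 CPM (1.94, 1.61 to 2.35), near the 31.9 and 38.0 CPM of myeloid-like nuclei.

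The other called genes of dopaminergic neuron-like nuclei had few counts. COL24A1 was 21 and 48 UMIs (ratio 3.04, 1.78 to 5.34) and COL18A1 16 and 35 (2.91, 1.57 to 5.62), both higher in PD. COL27A1 was 74 and 26 UMIs (0.467, 0.287 to 0.738) and COL4A6 50 and 16 (0.425, 0.226 to 0.759), both lower. COL11A1, the second most counted collagen gene of these nuclei, was 371 and 383 CPM (1.03, 0.965 to 1.10), and COL4A2 was 88.4 and 94.9 CPM (1.07, 0.936 to 1.23).

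**Figure D5:**
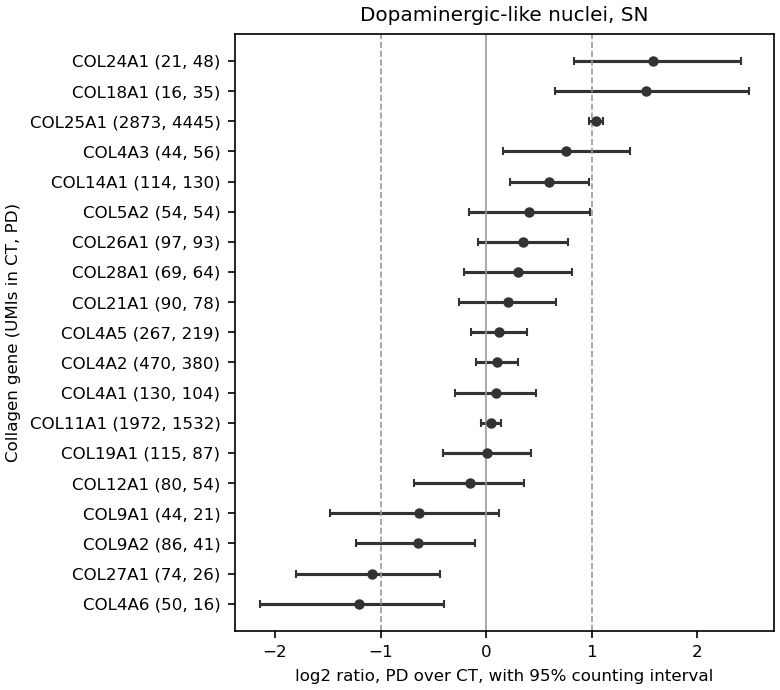
Log2 ratio of PD to CT (x axis) of the 19 collagen genes compared in dopaminergic neuron-like nuclei of SN, with the UMIs of CT and PD in brackets, bars for the 95% counting interval and dashed lines at 2-fold. COL25A1 has the narrowest interval of the called genes, and COL11A1, COL4A1 and COL4A2 lie near 0.

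Other neuron-like nuclei had 2 of 18 genes called in SN (2.6% of all genes), 3 of 11 in PUT (2.11%) and 2 of 13 in CN (2.99%), and no gene was called in more than 1 region. In SN COL16A1 was higher (15 and 43 UMIs, ratio 2.43, 1.32 to 4.71, log2 1.25 and 0.84 within clusters) and COL21A1, a FACIT collagen, lower (135 and 71, 0.446, 0.330 to 0.599). In PUT COL14A1 was higher (38 and 75, 2.72, 1.82 to 4.14), and COL5A2 (50 and 15) and COL12A1 (55 and 19) were lower. In CN COL24A1 (128 and 56, 0.436, 0.313 to 0.601) and COL9A1 (68 and 26, 0.381, 0.233 to 0.607) were lower.

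Among the remaining glia, astrocyte-like nuclei had 1 of 3 genes called in SN (5.49% of all genes), 0 of 3 in PUT (4.29%) and 1 of 7 in CN (3.87%). The gene was COL25A1 both times. It had 291 UMIs in CN CT and 63 in CN PD, or 471 and 143 CPM, a ratio of 0.303 (0.227 to 0.399), and 49 and 10 UMIs in SN (172 and 82.2 CPM, 0.478, 0.216 to 0.955). PUT had 52 and 24 UMIs (213 and 154 CPM, 0.725, 0.427 to 1.20). In CN the log2 ratio was -1.71 and -1.04 within clusters, where cluster 16.0 held 88.1% of the CT nuclei and cluster 16.1 88.6% of the PD nuclei. Direct and indirect SPN-like nuclei of CN had log2 ratios of -0.03 and 0.11 for COL25A1. COL27A1, which had astrocyte-like nuclei as its leading class, had ratios of 0.759 (0.506 to 1.11), 0.964 (0.574 to 1.59) and 0.835 (0.617 to 1.12) in SN, PUT and CN.

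OPC-like nuclei had 2 of 10 genes called in SN (2.0% of all genes), 0 of 5 in PUT (2.08%) and 0 of 5 in CN (1.77%). COL5A3 was lower in SN (84 and 27 UMIs, 154 and 56.5 CPM, ratio 0.367, 0.228 to 0.572), with 0.789 (0.478 to 1.30) in PUT and 0.639 (0.366 to 1.10) in CN. COL16A1 was lower in SN (38 and 16 UMIs, 0.480, 0.2501 to 0.882), with a log2 ratio of -1.03 that fell under 2-fold within clusters (-0.95). Myeloid-like nuclei had 1 of 2 genes called in SN (10.1% of all genes), and no collagen gene reached 50 UMIs in PUT (4.41%) or CN (5.01%). That gene was COL4A5, with 27 and 63 UMIs (39.1 and 109 CPM, 2.78, 1.75 to 4.54), where oligodendrocyte-like nuclei of the same libraries held 765 and 840 CPM. The libraries filled different clusters here: cluster 9.0 held 96.8% of the CT nuclei and 25.6% of the PD nuclei, and cluster 11.0, with F13A1 and CD4 among its leading genes, held 68.7% of the PD nuclei. In cluster 9.0 COL4A5 was 40.1 CPM (26.4 to 58.3, 27 UMIs) in CT and 123 CPM (73.0 to 195, 18 UMIs) in PD, and in cluster 11.0 it was 98.4 CPM (70.3 to 134) in PD. The part of free RNA in it was not tested.

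Of the 21 called genes, 4 were called in opposite directions in different classes or regions: COL5A2, COL16A1, COL24A1 and COL25A1. Genes with every compared ratio on the higher side in PD included COL18A1 (7 of 7), COL20A1 (5 of 5) and COL23A1 (4 of 4), and those with every ratio on the lower side included COL4A6 (4 of 4), COL5A1 (5 of 5) and COL27A1 (5 of 5). COL4A1 had no called ratio in 8 comparisons, nor did COL4A3 in 10, COL9A2 in 13, COL26A1 in 7 and COL28A1 in 8. Classes of 1 library share its animals and its free RNA, so these counts are not independent. No matching share over all genes is given for them, so they do not set the collagen genes apart.

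There are 6 pairs of collagen genes that are direct neighbours among the protein-coding genes of the RefSeq table of the T2T-MFA8v1.1 assembly, which lists all 41 symbols. Both genes had a leading class in 3 of the pairs, and it was the same in 1, COL4A1 and COL4A2. With any number of UMIs COL4A1 was highest in mural-like and COL4A2 in fibroblast-like nuclei, while COL3A1 and COL5A2, and COL6A1 and COL6A2, were highest in fibroblast-like nuclei. COL4A3 and COL4A4 both reached their highest CPM in mural-like nuclei, although COL4A4 had too few UMIs there to be placed. COL9A1 and COL19A1 are neighbours with different leading classes, OPC-like and other neuron-like nuclei. In oligodendrocyte-like nuclei of PUT, COL9A1 had a log2 ratio of -1.21 and COL19A1 of -0.73. In SN these were -0.73 and 0.53, in opposite directions, and in CN -0.85 and 0.01.

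Collagen chains need enzymes, chaperones and receptors, and the same rule was applied to lists of these. The lists too were chosen with earlier results of these data known, so their shares are not independent results. Of the 154 ratios measured for the 15 prolyl and lysyl modification genes, 11 passed 2-fold higher and 12 lower in PD, 14.9% in all against 4.39% over all genes (1.69% higher and 2.7% lower). P4HA3, a prolyl 4-hydroxylase subunit that stabilises the collagen helix, made up 9 of the 12 and was measured 10 times, with log2 ratios from -4.74 to -0.73. It had, for example, 223 and 24 UMIs in dopaminergic neuron-like nuclei (log2 -2.78) and 87 and 2 in indirect SPN-like nuclei of PUT (log2 -4.74). P3H2, a prolyl 3-hydroxylase that acts on collagen IV, was called higher in 5 of 18, among them oligodendrocyte-like nuclei of SN with 2925 and 6134 UMIs (ratio 2.66, 2.55 to 2.78). Folding and export genes had no called ratio among 89, also against 4.39%. Their median log2 ratio was -0.05, and that of the modification genes 0.11, against -0.05 over all genes.

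Processing and cross-linking genes had 7 ratios higher and 3 lower of 84, or 11.9% against 4.39% of all genes (median log2 -0.01). LOXL2, a lysyl oxidase that cross-links collagen IV, was called higher in each of its 4 comparisons, the direct and indirect SPN-like nuclei of PUT and CN, with 10 and 48 UMIs at the strongest (log2 2.64) and 13 and 57 at the weakest (log2 1.89). Receptor genes had 8 higher and 5 lower of 89, or 14.6% against the same 4.39% (median -0.18). ITGA1, the alpha subunit of a collagen-binding integrin, was higher in oligodendrocyte-like nuclei of SN (36 and 81 UMIs), PUT (14 and 39) and CN (6 and 56). Basement membrane partners had 10 higher and 9 lower of 111, or 17.1% against 4.39% (median -0.21). LAMA2, a laminin chain, was 86 and 397 UMIs in direct and 65 and 394 in indirect SPN-like nuclei of CN, log2 ratios of 2.18 and 2.39, while AGRN, the proteoglycan agrin, was called lower in 4 of 12.

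Breakdown genes, among them matrix metalloproteinases, cathepsins and tissue inhibitors of metalloproteinases, had 0 ratios higher and 2 lower of 78, or 2.56%, below the 4.39% of all genes (median log2 0.05). Small leucine-rich and fibril-associated genes had 1 higher and 14 lower of 57, or 26.3% against 4.39% of all genes, of which 2.7% were lower, with a median log2 ratio of -0.52 against -0.05 over all genes. OGN and ASPN, small leucine-rich proteoglycans that bind collagen fibrils, made up 6 and 4 of the 14. OGN had 84 and 20 UMIs in dopaminergic neuron-like nuclei (log2 -1.63), 125 and 38 in oligodendrocyte-like nuclei of SN (log2 -1.36) and 219 and 72 in direct SPN-like nuclei of CN (log2 -1.61). It lay at 13.7 to 19.4 CPM in CT and 5.0 to 6.3 CPM in PD over these classes of SN and CN. Within SN, dopaminergic neuron-like and oligodendrocyte-like nuclei had close values, 15.8 and 13.7 CPM in CT and 5.0 and 5.3 CPM in PD. The part of free RNA in these values was not tested.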

How the data were processed

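The deposited UMI count matrices were made by the authors from 10x 3′ v3 libraries with Cell Ranger 7.0.1, per the submitters' processing notes, and are whole-number counts with no normalization, per the file headers. The build in those notes is hg38, whereas gene identifiers in the files belong to Macaca fascicularis and the protocol says Macaca mulatta. The annotation release is not given in the sources used here, so no coordinates or sequences are printed. File names give each matrix its region and treatment.

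A nucleus was retained if it had 500 or more detected genes, no more than 5% of UMIs from mitochondrial genes and a Scrublet doublet score up to 0.25 (expected rate 0.06, scanpy 1.11.5). For clustering, each nucleus was scaled to 10000 UMIs and logged. Without the collagen genes, 2000 variable genes, 30 principal components and 15 neighbours gave Leiden clusters (resolution 1.0), and clusters of at least 60 nuclei were split again (1000 genes, resolution 0.5). Clusters were named by the median level of marker genes relative to the highest cluster. A cluster was mixed at a median doublet score of 0.15 or with a second family at 0.25 and 0.5 of the first, and unnamed (0.552% of nuclei) under a level of 0.15, under 20 nuclei or with too few detected or leading markers of its own. The erythroid markers were set aside after the clusters were seen. PAX5, IGKC and RYR3 were likewise left out of the count of leading markers, but stayed in the marker levels.

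UMIs were summed by class and library. Ratios have exact conditional binomial intervals and levels exact Poisson intervals (scipy 1.17.1). The ratio step was run on simulated Poisson counts for oligodendrocyte-like nuclei of SN. At a true log2 ratio of 1.585, 50 of 50 genes passed 2-fold the right way, as did 8 of 11405 unchanged genes in either direction. The simulated counts held counting error only, so the run cannot check differences between animals or libraries.

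The rule for named genes took the cases past 2-fold whose interval excluded 1, those shared by regions first and then by the nearest interval bound, up to 25 of 47. The other cases in the text were named after their values were seen. They are those in other neuron-like, dopaminergic neuron-like, OPC-like and myeloid-like nuclei, and those of COL1A1, COL5A2, COL9A1 and COL11A1. COL18A1 and COL19A1 in direct SPN-like nuclei also belong to them. The collagen genes and all lists were chosen with earlier results of these data known. Alternatives changed the nucleus filter, doublet removal, collagen genes in the clustering, mixed clusters, scaling, UMI minimum and nucleus weights, and a ratio within clusters (those with at least 20 nuclei of each library) and a placing of genes with any number of UMIs were added after seeing the data.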

Additional observations from a re-analysis of the deposited data

Results flagged for a closer look

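COL25A1 and COL16A1 passed 2-fold in opposite directions between classes of SN, and the difference between those ratios was not tested. Each of the 4 SN values fell under 2-fold in an alternative: COL25A1 to 0.70 in dopaminergic neuron-like nuclei within clusters and to -0.66 in astrocyte-like nuclei with each nucleus weighted equally, and COL16A1 to 0.84 in other neuron-like nuclei within clusters and to -0.85 in OPC-like nuclei without doublet removal. COL25A1 was higher in PD in dopaminergic neuron-like nuclei of SN (log2 ratio 1.04) and lower in astrocyte-like nuclei of SN (-1.01) and of CN (-1.71). COL16A1 was higher in PD in other neuron-like nuclei of SN (1.25) and lower in OPC-like nuclei of SN (-1.03), direct SPN-like nuclei of PUT (-1.22) and CN (-1.35) and indirect SPN-like nuclei of PUT (-1.49) and CN (-1.18). The astrocyte value in SN rests on 10 UMIs in PD, and the other neuron value of COL16A1 on 15 UMIs in CT.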

How the results depend on the processing

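No paired analysis was possible because each group is 1 matrix whose columns carry no replicate number. The counts depended mainly on the UMI minimum: with at least 20 UMIs, 26 ratios in SN and 28 in CN passed 2-fold (17 and 14 with at least 50), and with at least 200 UMIs 5 did in SN, 2 in PUT and 7 in CN (17, 16 and 14), as fewer genes were tested. Genes highest in a vascular class numbered 3, but 6 with at least 20 UMIs, 0 with at least 200 UMIs and 0 with nuclei of at least 1000 genes, which leave fewer vascular UMIs, and 25 with any number of UMIs, which left 6 neuronal and 10 glial (10 and 19 with at least 50). Of 57 counts under the alternatives, 46 stayed within 1.5 times of the value given. Of 414 values of the 47 called ratios under the alternatives, 413 kept their direction and 388 stayed past 2-fold. The exception in direction was COL5A2 in direct SPN-like nuclei of CN, -0.86 on the log2 scale within clusters against 1.19. Of the 39 called ratios with a value within clusters, 28 stayed past 2-fold. Under the alternatives fixed with the design, 9 of the 47 fell under 2-fold at least once, among them COL12A1 in PUT other neuron-like nuclei (down to -0.69) and COL25A1 in SN astrocyte-like nuclei (-0.66), both with each nucleus weighted equally. The cause was not tested. Depth limits the vascular classes most: 54 to 79 nuclei, so a gene with no UMI there can still be expressed.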
